A study of Mus musculus with 11 samples.

Results

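Respiratory complexes II to V are the later part of the mitochondrial respiratory chain and the ATP synthase, and their nuclear genes were followed here in mouse mammary tumours. The members were chosen by annotated gene symbol: Sdha to Sdhd for complex II, Cyc1, Uqcrfs1 and symbols that begin with Uqcr for complex III, Cycs and Cyct for cytochrome c, symbols that begin with Cox4, Cox5, Cox6, Cox7 or Cox8 for complex IV, and symbols that begin with Atp5 for complex V. This rule found 46 of the 19057 genes to which the array's annotation gives a single symbol, and each gene was read from its probe with the highest mean. The 46 genes comprise 4 of complex II, 8 of complex III, 2 cytochromes c, 8 ubiquitous subunits, 3 muscle isoforms and 4 other restricted isoforms of complex IV, 16 of complex V, and Cox7a2l, whose symbol carries the prefix although its product is known as a factor of supercomplex assembly. The subunits that the mitochondrial genome encodes are not among them.

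Complex II oxidises succinate and passes the electrons to ubiquinone, complex III moves them from ubiquinol to cytochrome c, and complex IV, cytochrome c oxidase, hands them to oxygen. Complexes III and IV pump protons as they do so, and complex V, the ATP synthase, lets the protons back through a turning ring to make ATP. In complex IV several nuclear subunits exist in a form found in most tissues and in a heart and skeletal muscle form, and Cox7a1 and Cox8b are also known from brown fat.

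The study compared mammary tumours of females that carried the polyoma middle T oncogene (PyMT), which gives rise to mammary tumours without further treatment. One group (PyMT/SIRT6, 5 tumours) also carried Sirt6BAC, an allele that overexpresses the deacylase SIRT6, and the other (PyMT, 6 tumours) was wild type for it. All tumours were taken at 12 weeks of age, and total RNA was read on Illumina Mouse WG-6 v2.0 BeadChips. The labels used here give neither the strain background nor the promoter of the oncogene, and do not say that each tumour came from a different mouse, so the p-values below measure the spread between these tumour samples.

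The deposited intensities had nearly the same distribution on the 11 arrays, with medians of 157.5 to 157.6, and no array pair was identical (correlations of 0.94 to 0.99). Sirt6 had log2 intensities of 8.49, 8.64, 8.31, 8.19 and 8.23 in PyMT/SIRT6 tumours, against a lowest of 7.64, a median of 7.78 and a highest of 7.88 in PyMT tumours. The groups did not overlap, the difference was 0.61 ± 0.09 (log2, SE), and the exact permutation p was 0.00216, the smallest that 462 splits of the arrays allow. The limma p adjusted over all features was 0.0574. The luminal keratins of mammary epithelium were present on every array, with Krt8 at 12.29 to 12.95 in PyMT/SIRT6 tumours and 12.23 to 13.40 in PyMT tumours. Skeletal muscle markers divided the arrays: the mean of 19 such genes exceeded 9 on 4 arrays, namely replicates 1, 4 and 5 of PyMT/SIRT6 (9.90, 10.57 and 11.41) and replicate 5 of PyMT (11.48), and lay between 7.40 and 8.45 on the other 7. Replicate numbers follow the order of deposit within a genotype and pair nothing.

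No tested gene of complexes II to V passed the threshold for a difference between the genotypes after adjustment over all features. Of the 46 members, 40 passed the filter that left out the dimmer 50% of features, a mean log2 intensity of 7.31, and 0 of these 40 had a limma adjusted p under 0.05, against 2 of 14727 features in all (0.0136%), neither of them a member. The smallest adjusted p among the members was 0.983. An unadjusted p under 0.05 was reached by 3 members, or 7.5%, against 4.43% of all features, and these were Uqcr11 and Cox7a2, both higher in PyMT/SIRT6 (2 members, against 2.04% of all features higher), and Cox6b2, lower (1 member, against 2.39% lower). This count was 5 without PyMT/SIRT6 replicate 2, and 0 without any 1 of PyMT/SIRT6 replicates 1, 4 and 5 or PyMT replicate 2. The share of all features moved too, to 8.33% in the run with 5 and to between 3.25% and 3.67% in the runs with 0. Cox6b2 lay near the floor, and only its PyMT mean, 7.35, was above the filter, with 7.29 in PyMT/SIRT6. Among the 35 tested ubiquitous members, which leave Cox6b2 out, 2 had a limma unadjusted p under 0.05, or 5.71%. No member had groups that did not overlap, against 0.489% of all features. The log2 difference, PyMT/SIRT6 minus PyMT here and throughout, was above 0 for 30 of the 40 tested members and for 46.9% of all features, with a median of 0.05 over members and -0.01 over features. The members share the same arrays, so their signs are not independent of each other. Leaving out the 4 arrays rich in muscle markers leaves 2 PyMT/SIRT6 tumours, replicates 2 and 3, and 5 PyMT tumours. There 13 of 40 members were above 0 and 0 reached an unadjusted p under 0.05. In PyMT/SIRT6 replicate 2 only 5 of the 35 ubiquitous members were above their own mean. Whether muscle content or the weight of replicate 2 changed the signs was not tested. In whole tumours, fewer cells of a type and less RNA per cell cannot be told apart.

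**Figure D1:**
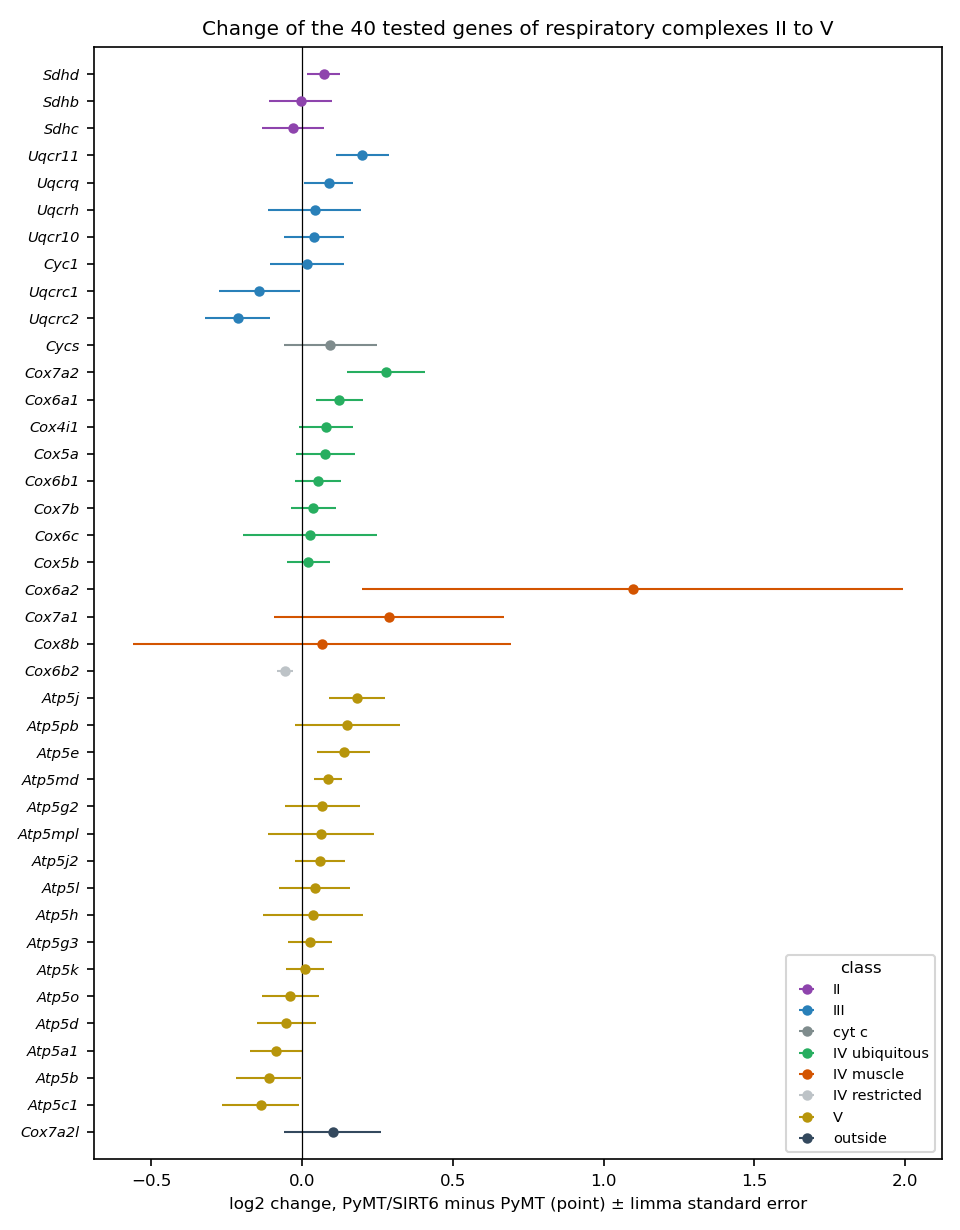
Log2 difference between PyMT/SIRT6 (n = 5) and PyMT (n = 6) tumours for the 40 tested genes on the horizontal axis, with bars of 1 limma standard error, sorted by class and size. Most points lie within about 0.2 of 0, and the muscle isoforms have the widest bars, with 1.10 ± 0.90 for Cox6a2.

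On the probes used, the genes of complex II differed by 0.07 or less between the genotypes. The median difference over the 3 tested of 4 genes was -0.01. Sdhb, the iron-sulfur subunit, had log2 intensities of 9.63, 9.41, 9.73, 9.68 and 9.77 in PyMT/SIRT6 tumours, against a lowest of 9.44, a median of 9.66 and a highest of 9.79 in PyMT tumours. The ranges lay on top of each other, and the difference was -0.01 ± 0.10 (95% interval -0.23 to 0.22). A further Sdhb probe gave -0.12 ± 0.12 when every probe was tested separately. Sdhc, a membrane anchor that holds the haem, averaged 11.50 ± 0.13 in PyMT/SIRT6 and 11.53 ± 0.14 in PyMT tumours (SD, n = 5 and 6). Its lowest array in either genotype was replicate 2, with 11.34 in PyMT/SIRT6 and 11.30 in PyMT. Sdhd, the other anchor, averaged 7.71 ± 0.06 in PyMT/SIRT6 and 7.64 ± 0.10 in PyMT tumours, a difference of 0.07 ± 0.05 (limma unadjusted p = 0.209, exact permutation p = 0.195). Sdha, the flavoprotein that binds succinate, lay just under the filter and was not tested, at 7.27 ± 0.05 in PyMT/SIRT6 and 7.26 ± 0.06 in PyMT tumours.

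In complex III 5 of 7 tested genes were higher in PyMT/SIRT6 tumours and 2 lower. On the probes used, the 2 core proteins, large subunits that face the matrix, were both lower in PyMT/SIRT6 tumours. On the same probes the 4 small subunits were all higher, and none of the 6 passed the adjusted threshold. This grouping by role was made after the values had been seen. It was lost without the 4 arrays rich in muscle markers, which leaves PyMT/SIRT6 replicates 2 and 3, with replicate 2 low for most members. There Uqcrc1 was at 0.07, Uqcr10 at -0.11, Uqcrh at -0.16 and Uqcrq at -0.02. Uqcrc2 at -0.34 and Uqcr11 at 0.15 kept their sign. Uqcrc2, a core protein, had log2 intensities of 12.53, 12.31, 12.59, 12.69 and 12.68 in PyMT/SIRT6 tumours, against a lowest of 12.64, a median of 12.70 and a highest of 13.10 in PyMT tumours. All 5 PyMT/SIRT6 values lay at or under the PyMT median, with replicate 2 the lowest, while 2 of them lay inside the PyMT range. The difference was -0.21 ± 0.11 (limma unadjusted p = 0.0689, adjusted p = 0.983, exact permutation p = 0.0584). Uqcrc1, the other core protein, averaged 11.25 ± 0.16 in PyMT/SIRT6 and 11.39 ± 0.26 in PyMT tumours, a difference of -0.14 ± 0.13. The highest Uqcrc1 value was that of PyMT replicate 5, 11.77.

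Uqcr11, a small membrane subunit, gave the smallest limma p among the tested subunits of complex III. Its log2 intensities were 13.24, 13.04, 13.37, 13.31 and 13.38 in PyMT/SIRT6 tumours, against a lowest of 12.92, a median of 13.09 and a highest of 13.20 in PyMT tumours. Of the PyMT/SIRT6 arrays 4 lay above every PyMT array, and replicate 2 lay among them. The difference was 0.20 ± 0.09, or 1.15-fold, with a limma unadjusted p of 0.0419, an adjusted p of 0.983 and an exact permutation p of 0.0325. Uqcrq, a small subunit that contacts cytochrome b, averaged 7.72 ± 0.15 in PyMT/SIRT6 and 7.63 ± 0.15 in PyMT tumours. Uqcr10 averaged 13.93 ± 0.15 in PyMT/SIRT6 and 13.89 ± 0.17 in PyMT tumours, and Uqcrh, the hinge protein, averaged 13.54 ± 0.27 in PyMT/SIRT6 and 13.50 ± 0.30 in PyMT tumours. These 3 differences, 0.09 ± 0.08, 0.04 ± 0.10 and 0.04 ± 0.15, did not exceed the spread between tumours. A dimmer Uqcrq probe, under the filter at a mean of 7.19, gave the opposite sign, -0.07. Its exact permutation p was 0.0173, against 0.333 for the Uqcrq probe used, and it was not tested with limma. A further tested Uqcr10 probe gave 0.11 ± 0.10. Of the redox subunits, Cyc1, cytochrome c1, averaged 10.87 ± 0.21 in PyMT/SIRT6 and 10.86 ± 0.17 in PyMT tumours. Uqcrfs1, the Rieske iron-sulfur protein, was under the filter at 7.27 ± 0.10 in PyMT/SIRT6 and 7.25 ± 0.05 in PyMT tumours.

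Cycs, the somatic cytochrome c that carries electrons from complex III to complex IV, varied more between tumours than between genotypes. It had log2 intensities of 11.10, 10.55, 11.26, 11.38 and 11.30 in PyMT/SIRT6 tumours, against a lowest of 10.70, a median of 11.08 and a highest of 11.22 in PyMT tumours. The lowest array of each genotype was its replicate 2, and the difference was 0.09 ± 0.15 (95% interval -0.24 to 0.43). Cyct, the testis form, was under the filter, at 7.09 ± 0.04 in PyMT/SIRT6 and 7.10 ± 0.07 in PyMT tumours.

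All 8 tested ubiquitous subunits of complex IV were higher in PyMT/SIRT6 tumours, by 0.02 to 0.28, and none passed the adjusted threshold. The median difference was 0.06. Without the 4 arrays rich in muscle markers, which leaves PyMT/SIRT6 replicates 2 and 3, it was 0.01. There 4 of the 8 were higher and 4 lower. Cox7a2, the liver-type form of a small membrane subunit, had log2 intensities of 8.47, 7.80, 8.32, 8.40 and 8.23 in PyMT/SIRT6 tumours, against a lowest of 7.73, a median of 7.97 and a highest of 8.22 in PyMT tumours. Of the PyMT/SIRT6 arrays 4 lay above the PyMT range and replicate 2 near its lower end. The difference was 0.28 ± 0.13, or 1.21-fold (limma unadjusted p = 0.0495, adjusted p = 0.983, exact permutation p = 0.0887), and it was 0.06 without the arrays rich in muscle markers.

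Cox6a1, the liver-type form of another regulatory subunit, had log2 intensities of 13.40, 13.53, 13.64, 13.33 and 13.40 in PyMT/SIRT6 tumours, against a lowest of 13.27, a median of 13.33 and a highest of 13.40 in PyMT tumours. Unlike most members it was high in PyMT/SIRT6 replicate 2, and the PyMT values formed a narrow band at the lower end. The difference was 0.12 ± 0.08 (limma unadjusted p = 0.136, exact permutation p = 0.0628), and it was 0.25 without the arrays rich in muscle markers. A further Cox6a1 probe gave 0.06 ± 0.10 (exact permutation p = 0.532) when every probe was tested separately. Cox4i1, the common form of subunit 4, at which ATP is known to slow the enzyme, averaged 13.82 ± 0.14 in PyMT/SIRT6 and 13.74 ± 0.13 in PyMT tumours. Its PyMT/SIRT6 arrays were 13.86, 13.57, 13.89, 13.92 and 13.87, so that replicate 2 stood apart from a tight set of 4.

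On the probes used, the other ubiquitous subunits differed by less than their standard errors. Cox5a, which binds a thyroid hormone metabolite, differed by 0.08 ± 0.10, and Cox5b, the zinc-binding subunit, by 0.02 ± 0.07. A further Cox5b probe gave 0.19 ± 0.14 when every probe was tested separately. Cox6b1, the subunit on the intermembrane side that bridges the dimer, differed by 0.05 ± 0.08, and Cox7b by 0.04 ± 0.07. Cox6c varied the most of all ubiquitous members, over 1.49 log2 units, with 10.28, 9.54, 9.92, 11.03 and 10.03 in PyMT/SIRT6 tumours, against 9.83 to 10.49 in PyMT tumours. Its extremes were thus both PyMT/SIRT6 tumours, and its genotype difference was 0.03 ± 0.22. Ndufa4, a subunit long counted with complex I and later assigned to complex IV, is outside the symbol rule and differed by 0.18 ± 0.14.

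**Figure D2:**
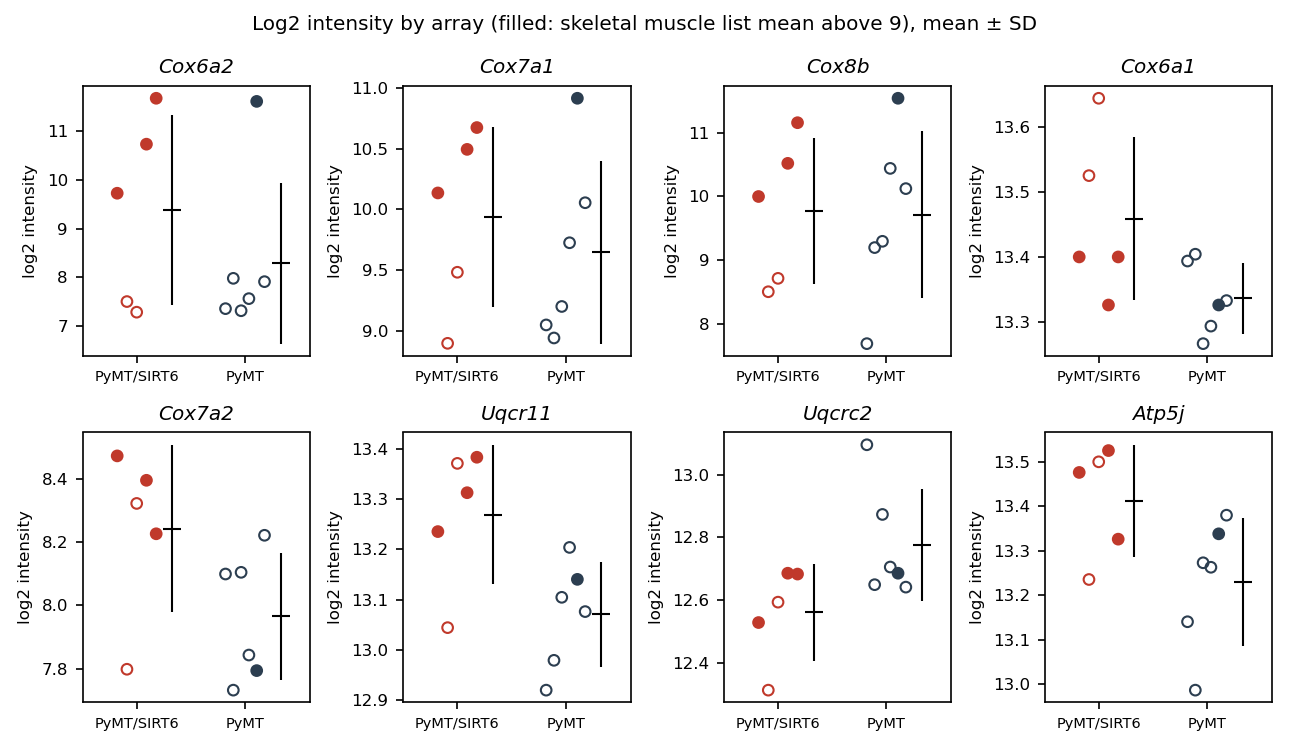
Log2 intensity (vertical axis) of 8 members on each PyMT/SIRT6 (red, left) and PyMT (dark, right) array, with the mean and SD as a bar beside each group (n = 5 and 6), and filled points for the 4 arrays whose skeletal muscle list mean exceeded 9. The filled points are the high values of Cox6a2 in both genotypes and lie in the upper part of Cox7a1 and Cox8b, while in Uqcr11 and Cox7a2 the open PyMT/SIRT6 point at the bottom is replicate 2.

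The muscle isoforms of complex IV were high on the 4 arrays rich in muscle markers, 3 of PyMT/SIRT6 and 1 of PyMT. They spread over 2.01 to 4.39 log2 units across the 11 arrays, against 0.23 to 1.49 for the 35 tested ubiquitous members. Their median genotype difference was 0.29, and none passed the adjusted threshold. To show what lies upstream of a muscle form and its common counterpart, the windows of 250 bases before the transcription start are printed for Cox7a1 and Cox7a2, for Cox8b and for Cox6a1, from RefSeq on GRCm38.p6, 5′ to 3′ on the gene's own strand. Capitals mark exact matches, on either strand, to an NRF1 motif (GCGCATGC), to an ETS motif (CCGGAAG) or to an E-box of the type bound by myogenic factors (CAGCTG), and lower case marks all other bases.
Cox7a1, chr7:30183921-30184170, plus strand: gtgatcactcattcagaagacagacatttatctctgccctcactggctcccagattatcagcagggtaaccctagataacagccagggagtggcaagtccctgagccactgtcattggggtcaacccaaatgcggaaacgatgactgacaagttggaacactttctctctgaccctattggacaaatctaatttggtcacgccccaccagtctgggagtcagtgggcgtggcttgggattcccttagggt
Cox7a2, chr9:79759854-79760103, minus strand: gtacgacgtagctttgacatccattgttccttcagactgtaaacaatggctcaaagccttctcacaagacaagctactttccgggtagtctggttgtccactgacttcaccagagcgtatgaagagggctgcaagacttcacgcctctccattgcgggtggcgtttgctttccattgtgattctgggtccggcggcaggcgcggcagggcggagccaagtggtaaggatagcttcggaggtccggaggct
Cox8b, chr7:140900447-140900696, minus strand: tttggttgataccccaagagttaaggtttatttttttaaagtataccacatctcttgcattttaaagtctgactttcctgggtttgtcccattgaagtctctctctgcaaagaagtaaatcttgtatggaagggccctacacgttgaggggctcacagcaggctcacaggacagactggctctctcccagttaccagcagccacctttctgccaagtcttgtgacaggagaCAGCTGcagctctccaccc
Cox6a1, chr5:115348959-115349208, minus strand: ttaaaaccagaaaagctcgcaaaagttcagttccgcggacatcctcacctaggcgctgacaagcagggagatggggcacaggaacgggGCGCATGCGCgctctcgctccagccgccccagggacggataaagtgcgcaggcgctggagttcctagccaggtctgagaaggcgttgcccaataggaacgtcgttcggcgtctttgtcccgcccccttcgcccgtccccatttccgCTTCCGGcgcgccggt
The Cox6a1 window holds 2 NRF1 matches that overlap on opposite strands, and an ETS match on the other strand close to the start. The Cox8b window holds 1 E-box match near the start, and the windows of Cox7a1 and Cox7a2 hold none of these letters. None of the 4 windows matches a MEF2 consensus. No window is given for Cox6a2.

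Cox6a2, the heart and skeletal muscle form of the subunit that Cox6a1 supplies elsewhere, had log2 intensities of 9.73, 7.50, 7.28, 10.74 and 11.68 in PyMT/SIRT6 tumours, against a lowest of 7.31, a median of 7.74 and a highest of 11.61 in PyMT tumours. The 4 high arrays were exactly the 4 rich in muscle markers, and the other 7 arrays of both genotypes lay at 7.98 or lower. The difference was 1.10 ± 0.90, or 2.14-fold, with a 95% interval of -0.84 to 3.03 (limma adjusted p = 0.983, exact permutation p = 0.34). Without the 4 muscle-rich arrays the difference was -0.23, and with the muscle list mean as a covariate it was 0.13.

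Cox7a1, the muscle form that pairs with Cox7a2, had log2 intensities of 10.14, 8.90, 9.48, 10.49 and 10.67 in PyMT/SIRT6 tumours, against a lowest of 8.94, a median of 9.46 and a highest of 10.91 in PyMT tumours. The groups overlapped throughout, and the difference was 0.29 ± 0.38 (exact permutation p = 0.522). It was -0.20 without the muscle-rich arrays and -0.07 with the covariate. Cox8b, a muscle and brown fat form of a small subunit, had 10.00, 8.50, 8.71, 10.52 and 11.16 in PyMT/SIRT6 tumours, against a lowest of 7.68, a median of 9.71 and a highest of 11.54 in PyMT tumours. Its difference was 0.06 ± 0.63 (exact permutation p = 0.929), -0.74 without the muscle-rich arrays and -0.51 with the covariate. Its common counterpart Cox8a was not analysed here.

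Cox7a1 and Cox8b were also high on arrays where Cox6a2 was not. In PyMT replicates 4 and 6 Cox8b stood at 10.44 and 10.12 and Cox7a1 at 9.73 and 10.05. Cox6a2 stood at 7.56 and 7.91 there, and the muscle list mean at 7.81 and 8.38. Across all arrays the lowest Cox6a2 value was 7.28 and the lowest muscle list mean 7.40. PyMT replicates 4 and 6 thus both lay above these lowest values, replicate 4 by less. PyMT replicate 2 had a higher Cox6a2, 7.98, and a higher muscle list mean, 8.45, than either. Its Cox8b, 9.20, and Cox7a1, 8.94, were lower than theirs. In PyMT replicates 4 and 6 Cidea, a lipid droplet protein counted here with the brown fat markers, stood at 8.35 and 8.24. Ucp1, the uncoupling protein that defines brown fat, stood at 7.72 and 7.92 on these arrays. The cell source of Cidea was not tested. Among all 11 arrays only PyMT replicate 5 had a higher Cidea, 9.12, and the others lay between 7.38 and 7.94. Ucp1 was about as high in PyMT/SIRT6 replicates 1 and 5, at 7.74 and 7.90, where muscle markers were high. The other 3 tested brown fat markers stood within the range of the remaining arrays in PyMT replicates 4 and 6, with Prdm16 at 7.34 and 7.35, Cpt1b at 7.41 and 7.39, and Ppargc1a at 7.37 and 7.39. The mean of the 6 tested white adipocyte markers was 9.60 in PyMT replicate 4, the highest of all arrays, and 8.44 in PyMT replicate 6, with 7.73 to 9.39 in PyMT/SIRT6 tumours and 7.80 to 9.60 in PyMT tumours. Of the 9 brown fat markers with a probe 5 passed the filter, and Elovl3, Dio2, Slc27a2 and Zic1 did not. The summed intensity of the 9 ranged from 1399.9 to 1720.0 in PyMT/SIRT6 and from 1409.6 to 2273 in PyMT tumours. For the 21 skeletal muscle markers with a probe the sum ranged from 3849.6 to 132271 in PyMT/SIRT6 and from 3742 to 133440.0 in PyMT tumours, and 17 of the 19 tested were higher in PyMT/SIRT6 with 0 called and 0 at a limma unadjusted p under 0.05. None of the 7 cardiac muscle markers with a probe passed the filter. The part of muscle, brown fat or white fat in the Cox7a1 and Cox8b values of PyMT replicates 4 and 6 was not tested.

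**Figure D3:**
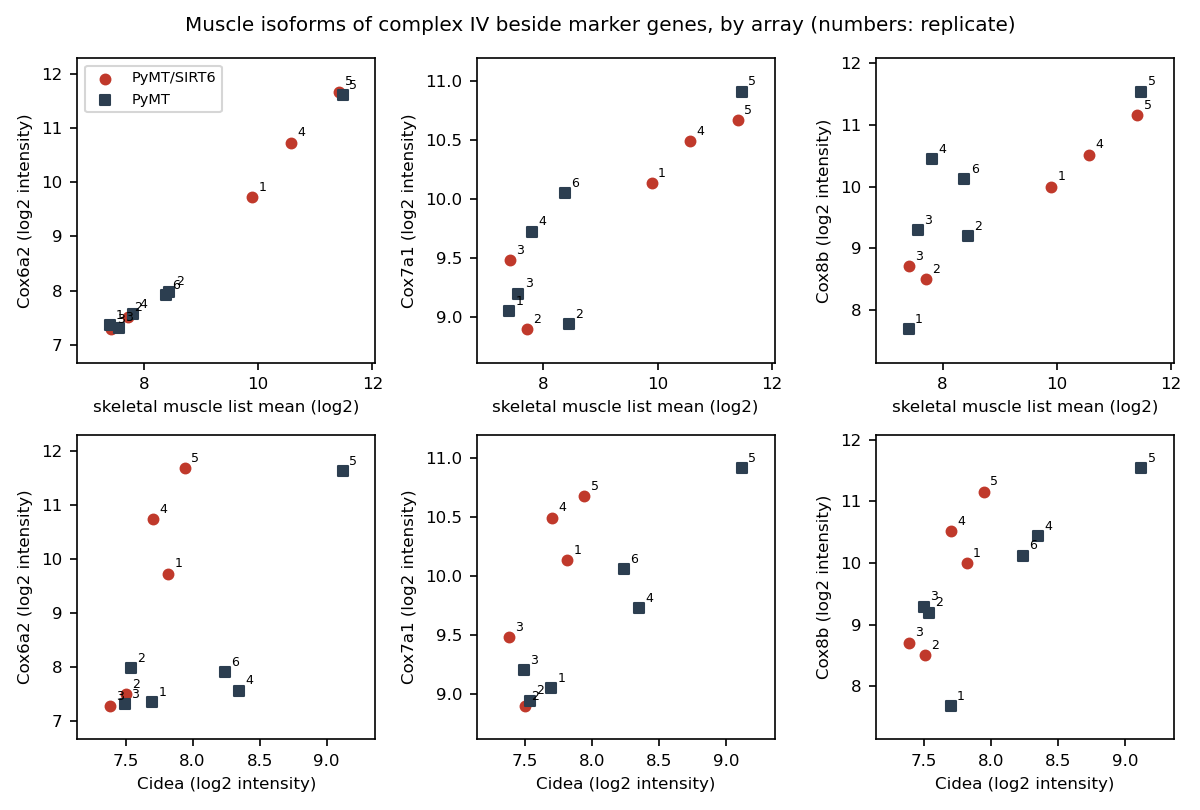
Log2 intensity of Cox6a2, Cox7a1 and Cox8b (vertical axes, left to right) against the mean of the 19 skeletal muscle markers (upper row) and against Cidea (lower row), with 1 point per array, circles for PyMT/SIRT6, squares for PyMT and replicate numbers beside the points. Cox6a2 exceeds 9 only on the 4 arrays above 9 on the muscle axis and lies between 7.28 and 7.98 on the others. Cox8b is also high in PyMT replicates 4 and 6, which lie to the right on the Cidea axis.

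The remaining tissue-restricted isoforms of complex IV were at or near the floor of the array. Cox6b2, a testis form, was the dimmest member tested, at 7.30, 7.27, 7.32, 7.28 and 7.30 in PyMT/SIRT6 tumours, against a lowest of 7.30, a median of 7.35 and a highest of 7.43 in PyMT tumours. Its difference was -0.06 ± 0.03 (limma unadjusted p = 0.0408, adjusted p = 0.983, exact permutation p = 0.0238), and the filter lies within the range of its values. Its mean was under the filter in PyMT/SIRT6 tumours, at 7.29, and above it only in PyMT tumours, at 7.35. Cox4i2, the lung form of subunit 4, and the testis forms Cox7b2 and Cox8c were under the filter in both genotypes, with means of 7.14 to 7.21. Cox7a2l, the supercomplex factor, averaged 11.31 ± 0.28 in PyMT/SIRT6 and 11.21 ± 0.27 in PyMT tumours, a difference of 0.10 ± 0.16.

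In complex V, 11 of 16 genes were higher in PyMT/SIRT6 tumours and 5 were lower, with a median difference of 0.04, 0 called and 0 at a limma unadjusted p under 0.05. Of the 5 genes of the catalytic F1 head 4 were lower, and so was 1 of the 4 genes of the peripheral stalk, which holds the head still. The 2 genes of the proton-carrying c ring and the 5 accessory genes of the membrane part were all higher. These signs are those of the probes used. Further probes of some genes, among them Atp5k, Atp5md and Atp5mpl, had the opposite sign. The roles were assigned after the values had been seen, and no p belongs to this arrangement. Without the muscle-rich arrays, which leaves PyMT/SIRT6 replicates 2 and 3, it was lost and the median of the complex was -0.03. There Atp5b was at 0.10, Atp5d at 0.05 and Atp5e at -0.06, and 3 of the 4 stalk genes were lower. Of the accessory genes Atp5j2 was at -0.05, Atp5l at -0.04, Atp5k at -0.05 and Atp5mpl at -0.26, with Atp5md alone above 0 at 0.04.

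Within the F1 head, Atp5c1, the central shaft that turns inside it, had log2 intensities of 12.97, 12.52, 12.81, 12.95 and 12.64 in PyMT/SIRT6 tumours, against a lowest of 12.52, a median of 12.96 and a highest of 13.14 in PyMT tumours. The groups overlapped over nearly the whole range, and the difference was -0.14 ± 0.13. Atp5b, the catalytic subunit, averaged 14.66 ± 0.22 in PyMT/SIRT6 and 14.77 ± 0.16 in PyMT tumours, a difference of -0.11 ± 0.11. It was high, at 14.95 and 14.96, in replicate 2 of PyMT/SIRT6 and of PyMT, where most members were low. Atp5a1, which forms the head together with Atp5b, averaged 8.06 ± 0.16 in PyMT/SIRT6 and 8.15 ± 0.11 in PyMT tumours, a difference of -0.09 ± 0.09, and a further tested probe of it gave 0.10. Atp5d, a subunit of the shaft, differed by -0.05 ± 0.10. Atp5e, the smallest subunit of the shaft, was the exception in the head: it had 7.96, 7.57, 7.79, 7.94 and 7.99 in PyMT/SIRT6 tumours, against a lowest of 7.56, a median of 7.73 and a highest of 7.90 in PyMT tumours. Its difference was 0.14 ± 0.09 (limma unadjusted p = 0.141, exact permutation p = 0.162).

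Atp5j, coupling factor 6 of the peripheral stalk, had the largest difference of complex V. Its log2 intensities were 13.48, 13.24, 13.50, 13.53 and 13.33 in PyMT/SIRT6 tumours, against a lowest of 12.99, a median of 13.27 and a highest of 13.38 in PyMT tumours. Of the 5 PyMT/SIRT6 arrays 3 lay above every PyMT array, and the difference was 0.18 ± 0.09 (limma unadjusted p = 0.0703, adjusted p = 0.983, exact permutation p = 0.0563). A further tested probe gave 0.19. Atp5pb, the stalk's membrane-anchored subunit, differed by 0.15 ± 0.17 and Atp5h by 0.04 ± 0.17. Atp5o, which ties the stalk to the head, differed by -0.04 ± 0.09, and its further probes gave 0.21 and -0.03.

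On the probes used, the genes of the membrane part differed by 0.01 to 0.09. The c ring genes Atp5g2 and Atp5g3, which encode the same mature protein, differed by 0.07 ± 0.12 and 0.03 ± 0.07. Atp5md, a small accessory protein, had 7.34, 7.31, 7.40, 7.47 and 7.54 in PyMT/SIRT6 tumours, against a lowest of 7.18, a median of 7.34 and a highest of 7.39 in PyMT tumours. The difference was 0.09 ± 0.05 (limma unadjusted p = 0.087, exact permutation p = 0.147), with a further probe at -0.02. Atp5j2, Atp5l, Atp5k and Atp5mpl, which sit beside the c ring and at the dimer interface, differed by 0.06 ± 0.08, 0.04 ± 0.12, 0.01 ± 0.06 and 0.06 ± 0.18. A further probe gave -0.04 for Atp5mpl, and one under the filter gave -0.04 for Atp5k. For Atp5l further probes gave 0.06 and, under the filter, 0.04. Over all members, 13 genes had further tested probes, and of these 16 probes 11 had the sign of the probe used and 5 the opposite sign.

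Most ubiquitous members were low on replicate 2 of both genotypes, in all complexes, and many were low on PyMT replicate 5. Each gene was set against its own mean over the 11 arrays. In PyMT/SIRT6 replicate 2 only 5 of the 35 ubiquitous members were above their own mean, and in PyMT replicates 2 and 5 only 6 and 9, against 30 in PyMT/SIRT6 replicate 3 and 16 to 26 on the other arrays. The median deviation was -0.17 in PyMT/SIRT6 replicate 2, and -0.13 and -0.10 in PyMT replicates 2 and 5. PyMT replicate 5 was not set apart in complex III, with a median of -0.02 against -0.03 and -0.04 in PyMT replicates 4 and 6. On PyMT replicate 5, 5 of the 35 members had their lowest value of all arrays and 3 their highest. In replicate 2 of both genotypes 28 members were below their own mean. Atp5b, Atp5d, Cox6a1 and Uqcrc1 were the 4 above it in replicate 2 of both, Uqcrc1 only just in PyMT/SIRT6 (11.34 against 11.32). Of the 4 keratins on the epithelial list, Krt8 and Krt18 were highest of their genotype there, with Krt8 at 12.95 in PyMT/SIRT6 replicate 2 and 13.40 in PyMT replicate 2, and Krt18 at 11.96 and 12.00 on the same arrays. Krt19 and Krt7 were highest of their genotype in PyMT replicate 2, at 10.35 and 9.57, but not in PyMT/SIRT6 replicate 2, where Krt19 was 9.77 within a range of 9.46 to 10.22 and Krt7 was 9.09 within a range of 8.86 to 9.41. Epcam, also on the epithelial list, was under the filter and not tested, at 7.25 in PyMT/SIRT6 and 7.27 in PyMT tumours. The mean of the 9 tested epithelial markers was 11.04 in PyMT/SIRT6 replicate 2, within that genotype's range of 10.91 to 11.33, and 11.39 in PyMT replicate 2, the top of a range of 10.68 to 11.39. The part of the epithelial share in the low member values was not tested, and the labels name no batch.

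**Figure D4:**
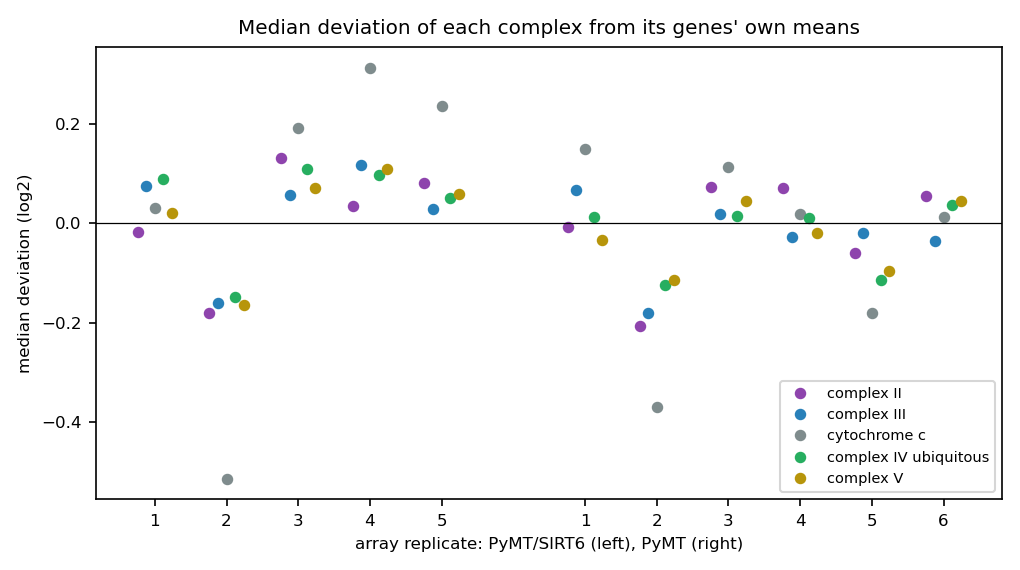
Median deviation (log2) of the tested members of each class from their own means over the 11 arrays, by array, with PyMT/SIRT6 replicates 1 to 5 on the left and PyMT replicates 1 to 6 on the right. Replicate 2 of each genotype is low in all 5 classes, and cytochrome c, which is the single gene Cycs, reaches -0.51 and -0.37 there.

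**Figure D5:**
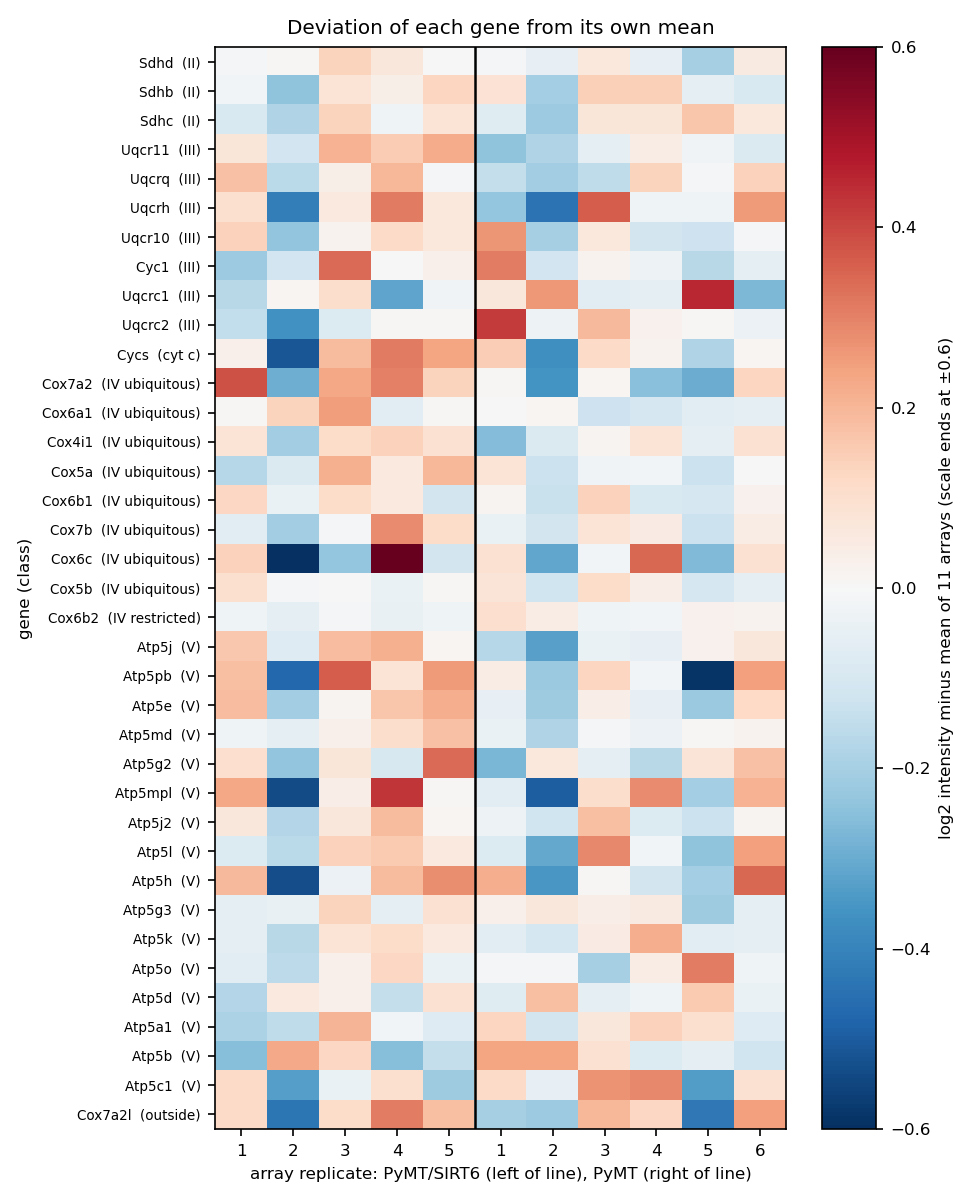
Log2 deviation of each of the 37 tested members other than the muscle isoforms (rows) from its own mean, on each array (columns, PyMT/SIRT6 left of the line and PyMT right of it). Blue columns mark replicate 2 of both genotypes and PyMT replicate 5. A few rows such as Uqcrc1 and Atp5d lie above their mean there, Uqcrc1 only just in PyMT/SIRT6 replicate 2 (11.34 against 11.32).

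The factors that build the complexes showed no called gene either. Of the 4 complex II assembly factors 4 were higher in PyMT/SIRT6 tumours, of the 4 tested for complex III 2 were higher and 2 lower, of the 18 for complex IV 13 were higher and 5 lower, and of the 4 for complex V 4 were higher. Cox19, a small protein of the intermembrane space known from yeast for copper handling in complex IV assembly, was the only one of these factors with an unadjusted p under 0.05. It averaged 10.94 ± 0.22 in PyMT/SIRT6 and 10.54 ± 0.32 in PyMT tumours, a difference of 0.41 ± 0.16 (limma unadjusted p = 0.0247, adjusted p = 0.983, exact permutation p = 0.0433). The factors were lowest on the arrays where most subunits were low. For complex II their mean was 8.69 in PyMT/SIRT6 replicate 2, the lowest of that genotype. It was 8.73 and 8.68 in PyMT replicates 2 and 5, the lowest of theirs. The means for complexes III, IV and V were lowest on the same arrays. The mean of the tested genes of mitochondrial content was not. It was 10.63 in PyMT/SIRT6 replicate 2 (range 10.49 to 10.76), and 10.79 and 10.63 in PyMT replicates 2 and 5 (range 10.54 to 10.86).

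Regulators and other mitochondrial genes gave no common direction. Of 11 tested regulators of respiratory genes, among them Nrf1, Gabpa, Tfam and Ppargc1a, 6 were higher and 5 lower, with 0 called and 0 at a limma unadjusted p under 0.05, and Nrf1 differed by -0.08 ± 0.09. Of 12 tested genes of mitochondrial content 3 were higher and 9 lower, and 0 were called. Immt, the only one of them with an unadjusted p under 0.05, is the mitofilin that shapes cristae and averaged 10.45 ± 0.12 in PyMT/SIRT6 and 10.69 ± 0.13 in PyMT tumours, a difference of -0.24 ± 0.10 (limma unadjusted p = 0.0355, adjusted p = 0.983, exact permutation p = 0.0238). Of the 9 leukocyte markers with a probe 6 were tested and all 6 were higher in PyMT/SIRT6 tumours with 0 called, and the summed intensity of the 9 ranged from 7415 to 11178 in PyMT/SIRT6 and from 5399 to 12799.5 in PyMT tumours. Cd3d, a chain of the T cell receptor complex, was the only one of them with an unadjusted p under 0.05, with a difference of 0.26 ± 0.12 (limma unadjusted p = 0.0417, adjusted p = 0.983, exact permutation p = 0.0866). Of the other marker lists, 7 of 7 fibroblast, 2 of 8 endothelial, 2 of 6 white adipocyte and 1 of 9 epithelial genes tested were higher in PyMT/SIRT6 tumours, with 0 called and 0 at an unadjusted p under 0.05. The part of these cell types in the member values was not tested.

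The promoter windows of the members were searched for 4 motifs, with those of all genes beside them. Of the 46 members, 35 had a window of 250 bases before the start in RefSeq, with 38 windows in all. The NRF1 motif GCGCATGC, searched on both strands as were the others, was found in 6 of 38 member windows (15.8%) and in 2.26% of all 32851 windows. It lay before Atp5g2, Atp5k, Atp5l, Cox6a1, Cycs and Sdhb. The ETS motif CCGGAAG was found in 9 member windows (23.7%) and in 6.91% of all windows, and Uqcr11 and Atp5j are among those 9 genes. The E-box CAGCTG was found in 2 member windows (5.26%), those of Cox8b and Atp5b, and in 13% of all windows. The MEF2 consensus was found in no member window and in 2.92% of all. These matches describe letters in the windows and do not show binding.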

How the data were processed

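Per the labels' protocols, labelled cRNA from the total RNA of 11 mammary tumours was read on 1 BeadChip array each. The deposited table holds 1 linear intensity per probe and array, and its sorted values differ by at most 1.08% between arrays, so the authors deposited normalized intensities. Which normalization or background correction they used was not stated in the labels or the table. No detection p-values were used.

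The 45281 probes were named through the platform annotation: 34885 carry 1 symbol, 18 carry several and 10378 none. All 46 member symbols matched RefSeq. Intensities were taken to log2, 1 probe per gene was kept (highest mean), probes without a symbol stayed as features, and the lower 50% of the 29453 features by mean were left out (limit 158.6, log2 7.31). The 14727 remaining features were fitted with limma 3.58.1 in R 4.3.3 (lmFit, eBayes with intensity trend), with no covariate, and p-values were adjusted by Benjamini-Hochberg over all of them at 0.05. The script was tested on simulated data. Single genes also had a two-sided exact permutation test over 462 splits. Values after ± are SD for group means and the limma standard error for differences, and intervals are 95%. Probe levels are not comparable between genes, and precision is set by having 5 and 6 arrays.

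Named genes were the muscle isoforms and their counterparts, all Sdh genes, both cytochromes c, the 3 largest differences over their standard error in each direction in complexes III, IV and V, members below the filter or outside the complexes, and up to 3 genes per other list with an unadjusted p under 0.05. Further members are given by their differences. Members, marker lists, roles and motifs were chosen with earlier results of these data known.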

Additional observations from a re-analysis of the deposited data

Results flagged for a closer look

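In 6 of 92 sets of values examined, 1 array lay farther from the rest of its group than a Dixon test at 95% allows, and chance flags about 1 in 20 sets. PyMT/SIRT6 replicate 2 was low for Cox4i1 (13.57, others 13.86 to 13.92), for Cox7a2l (10.83, others 11.37 to 11.56) and for the median deviation of the ubiquitous subunits of complex IV (-0.15, others 0.05 to 0.11). PyMT replicate 2 was low for Atp5md (7.18, others 7.32 to 7.39). PyMT replicate 5 was high for Cox6a2 (11.61, others 7.31 to 7.98) and for the mean of the skeletal muscle markers (11.48, others 7.40 to 8.45). The Cox6a2 flag and the muscle flag fall on the same array.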

How the results depend on the processing

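Of 24 alternatives, 11 left out 1 array each. The number of members called was 0 in all 24. Of the 40 tested members 11 kept their sign in every alternative run, among them Uqcr11, Uqcrc2, Cox7a2, Cox6a1 and Atp5j, and 29 changed sign in at least 1. The number of members with an unadjusted p under 0.05, 3 as reported, was 6 with array weights, 1 with the lower 75% of features left out, 0 with the muscle list mean as covariate and 0 without the 4 muscle-rich arrays. It ranged from 0 to 5 when 1 array was left out: 0 without PyMT/SIRT6 replicate 1, 4 or 5 or PyMT replicate 2, 1 without PyMT/SIRT6 replicate 3 or PyMT replicate 1, and 5 without PyMT/SIRT6 replicate 2. The share of all features under 0.05, 4.43% as reported, moved too. It was 9.35% with array weights, 3.39% with the lower 75% left out, 3.95% with the covariate and 2.96% without the muscle-rich arrays. It was 8.33% without PyMT/SIRT6 replicate 2 and 3.30% without PyMT replicate 2. Without PyMT replicate 5 it was 5.73%, with 2 members. The number of members higher in PyMT/SIRT6, 30 as reported, was 13 without the muscle-rich arrays and 21 to 32 with 1 array left out, the lowest without PyMT replicate 2. The number of features called among all, 2 as reported, was 4 with the mean of a gene's probes, 6 with every probe tested separately, 4 with normexp background subtraction, 4 with array weights, 1 with the deposit order as a block, 0 without the muscle-rich arrays, and 1 to 3 with 1 array left out. Leaving out arrays reduces the samples, and the other causes were not tested. The medians of the classes moved by less than the spread between arrays in all 24, but most changed sign. That of the ubiquitous subunits of complex IV stayed above 0, at 0.01 to 0.11. That of complex II was above 0 in 7 and below 0 in 17. Those of complex III, complex V and the muscle isoforms were below 0 in 2, and cytochrome c in 1. No paired analysis was possible because the labels carry no replicate numbers. With 5 and 6 arrays, differences of the size seen for most members are within the standard error, so a p above the threshold does not show that the genotypes are alike.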
